A study of Mus musculus with 6 samples.

Results

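The genes described here encode the machinery that licenses and fires DNA replication origins and that copies DNA at the fork. They were taken from the expression table by name, as 52 gene symbols sorted into 15 complexes or roles. Of these, 50 had an entry of their own among the 26082 names of the table, and all 50 were tested, since each averaged 1 FPKM or more across the 6 samples. FPKM, fragments scaled by transcript length and by the mapped fragments of the library, is a level per length, so it can be set side by side between genes. The remaining 2, Cdc6 and Pold1, occur only in entries joined with a neighbouring gene (Cdc6/Rara and Nr1h2/Pold1), so no value could be given to either gene alone.

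RNA-Seq was performed on leukemia cells from the bone marrow of mice with leukemia driven by MLL-AF9, a fusion oncogene of acute myeloid leukemia. Both groups had the C57BL/6J strain label and the MLL-AF9 transduced gene, and differed in the oral treatment given 24 h before the cells were taken. The vehicle group held 3 samples and the group given 80 mg/kg DS-5272, a small molecule that blocks the binding of MDM2 to p53, held 3 samples. Per the study's methods, c-Kit+ bone marrow progenitors were transduced by retrovirus and the leukemia was passaged repeatedly through recipients, and the passaged cells were injected into non-irradiated mice. The samples thus stand for a passaged leukemia in hosts that kept their own bone marrow and immune cells. The design text says that a cell sorter was used to purify the leukemia cells. It names no gate, and the study describes sorting by the GFP of the MLL-AF9 vector for other assays. The labels give neither the age of the mice nor the Trp53 genotype of the cells, and they do not say whether the mice were of separate cohorts, so p-values measure the spread between these samples.

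An origin is licensed in G1, when the origin recognition complex, Cdc6 and Cdt1 load the MCM2-7 helicase onto DNA. In S phase the kinases CDK and DDK turn the loaded helicase into the active Cdc45-MCM-GINS complex, and polymerase alpha-primase, delta and epsilon copy the strands with the clamp PCNA and its loader RFC. Many of these genes are transcribed in proliferating cells under E2F factors, and p53 is known to lower such genes through its target p21, RB-family proteins and the DREAM complex.

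Not every member with an E2F-type match was checked for overlap with exons. The upstream sequences of 3 members are printed as examples with exact matches outside any annotated exon, and the pair of MCM genes carries the same element. They come from RefSeq (GRCm38.p6), are written on the strand of the gene, and capitals mark the match. The Mcm5 stretch lies at chr8:75109326-75109405 on the plus strand, from 183 to 104 bases upstream of the RefSeq start. That of Mcm6 lies at chr1:128359766-128359845 on the minus strand, from 140 to 61 bases upstream. The Pola1 stretch lies at chrX:93632244-93632323 on the minus strand, from 168 to 89 bases upstream.
Mcm5: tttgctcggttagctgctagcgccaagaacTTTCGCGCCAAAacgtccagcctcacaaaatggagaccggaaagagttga
Mcm6: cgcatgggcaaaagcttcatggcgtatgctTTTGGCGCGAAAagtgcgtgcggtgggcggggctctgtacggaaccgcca
Pola1: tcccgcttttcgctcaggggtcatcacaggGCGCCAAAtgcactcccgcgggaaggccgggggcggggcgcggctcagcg
The 12 capitals of Mcm5, TTTCGCGCCAAA, are the reverse complement of those of Mcm6, TTTGGCGCGAAA, and each run holds 2 overlapping E2F-type words on opposite strands. Among the 27025 genes with a RefSeq window, 4 held this run (0.0148%), namely Mcm5, Mcm6, Msh3 and Mycn, a comparison chosen after the sequences were seen.

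The library-wide features bear on every value below. The table gives no read totals. Relative to vehicle replicate 1, the depth read from the smallest steps of the FPKM values was 0.808 and 0.885 in the other vehicle samples and 0.539 to 0.746 in the DS-5272 samples, so depth and treatment moved together. The FPKM of all genes summed to 445316 to 501241 in vehicle samples and 499229 to 661184 in DS-5272 samples. Meis1, a transcription factor of the MLL-AF9 program, stood at 66.1 to 80.5 FPKM with vehicle and 69.2 to 110 FPKM with DS-5272, while Hoxa9 and Spi1 have no entry of their own. Mpo, the myeloid granule enzyme, fell from a mean of 228 to 6.40 FPKM and Kit, the stem cell factor receptor, fell by 1.96 on the log2 scale, while the myeloid integrin Itgam rose by 2.1 and Ptprc, the leukocyte marker CD45, rose by 1.18.

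Some markers listed for other cells were also higher with the treatment. The share of all tested genes above every vehicle sample is not given here, so the counts below describe the lists only. By limma 24.2% of all tested genes were called higher, as were 3 of 7 macrophage markers and 1 of 2 tested erythroid markers. The 7 macrophage markers summed to 44.1 to 92.7 FPKM with vehicle and 108 to 371 FPKM with DS-5272, with 5 of the 7 above every vehicle sample and none at 0. Of the 6 listed erythroid markers, 5 had an entry, and these summed to 1.93 to 3.84 and 8.27 to 91.0 FPKM, with 2 above every vehicle sample and with Epor among those at 0 in at least 1 sample. The 4 stroma and endothelium markers summed to 28.9 to 59.9 and 73.1 to 112 FPKM with 2 above every vehicle sample. Most of that sum was Pecam1, at 26.4 to 58.8 FPKM with vehicle and 68.3 to 109 FPKM with DS-5272. Col1a1 and Cdh5 overlapped between the groups, and Cdh5 and Cxcl12 were under 1 FPKM in every sample. The 3 megakaryocyte markers summed to 1.65 to 2.08 and 3.71 to 5.67 FPKM, with 2 above every vehicle sample and Pf4 at 0 in at least 1 sample. All 6 T and NK markers and all 4 B cell markers were under 1 FPKM in every sample, with Cd3d, Ncr1, Pax5 and Ms4a1 among those at 0 in at least 1. The T and NK markers summed to 0.303 to 0.324 and 0.767 to 1.09 FPKM, with 3 above every vehicle sample. Those of B cells summed to 0.163 to 0.388 and 0.239 to 0.494 FPKM, with none above every vehicle sample. The highest macrophage and erythroid sums were both in DS-5272 replicate 1. Without that sample 48 replication members were called lower, with a median log2 fold change of -1.40, but the marker sums of the remaining DS-5272 samples were also above every vehicle sample, at 108 and 126 FPKM for macrophages and 16.8 and 8.27 FPKM for erythroid cells. Vcam1 held most of these macrophage sums, at 74.8 FPKM in DS-5272 replicate 2 and 85.7 FPKM in replicate 3. Its groups overlapped, with 36.6 to 82.8 FPKM in vehicle samples, and it was not called (limma adjusted p = 0.125). By mass cytometry, the study found VCAM-1 raised by DS-5272 in c-Kit+ cells. The part of other cells in the results was not tested.

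Replication genes were lower with DS-5272 in nearly every complex. Of the 50 tested members, 48 were called lower at an adjusted p under 0.05 (limma on log2(FPKM + 1), Benjamini-Hochberg over 11130 genes), against 22% of all tested genes. None was called higher, against 24.2% of all tested genes, and Orc4 and Pole were not called. In 48 members every DS-5272 sample was below every vehicle sample, as in 29.7% of all tested genes. The median log2 fold change of the members was -1.44, with a range from -2.40 to 0.32, and that of all tested genes was 0.04, with quartiles of -0.34 and 0.46. Fold changes are differences of log2(FPKM + 1) between DS-5272 and vehicle means, a scale that understates the change of low genes. The members' median level after DS-5272 was 34.4% of the vehicle mean. In bulk RNA, fewer cells in S phase and less of these transcripts per cell cannot be told apart.

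The falls differed in size between complexes. A fall of more than 2 on the log2 scale was found in 13 members, of 1 to 2 in 24, and of less than 1 in 11 of those called lower. With a change of at least 1 also required, 37 members were called lower, against 5.58% of all tested genes. Among the 250 genes with the largest falls of all 11130, 25 were members. The medians ran from -2.36 for Top2a alone, -2.19 for MCM2-7 and -2.06 for the fork protection genes to -0.93 for RPA, -0.77 for ORC and -0.48 for polymerase epsilon. These medians describe the lists and were not tested against each other. Mean levels in vehicle samples ran from 3.90 FPKM for Mcm8 to 256 FPKM for Pcna, with a median of 33.3, and in DS-5272 samples from 1.15 to 119 FPKM, with a median of 14.8. Scaling every sample to the same FPKM total lowered the median fold change of all genes by 0.24 and gave 31.9% of genes lower and 15.4% higher, and 48 members were called lower under it too.

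**Figure D1:**
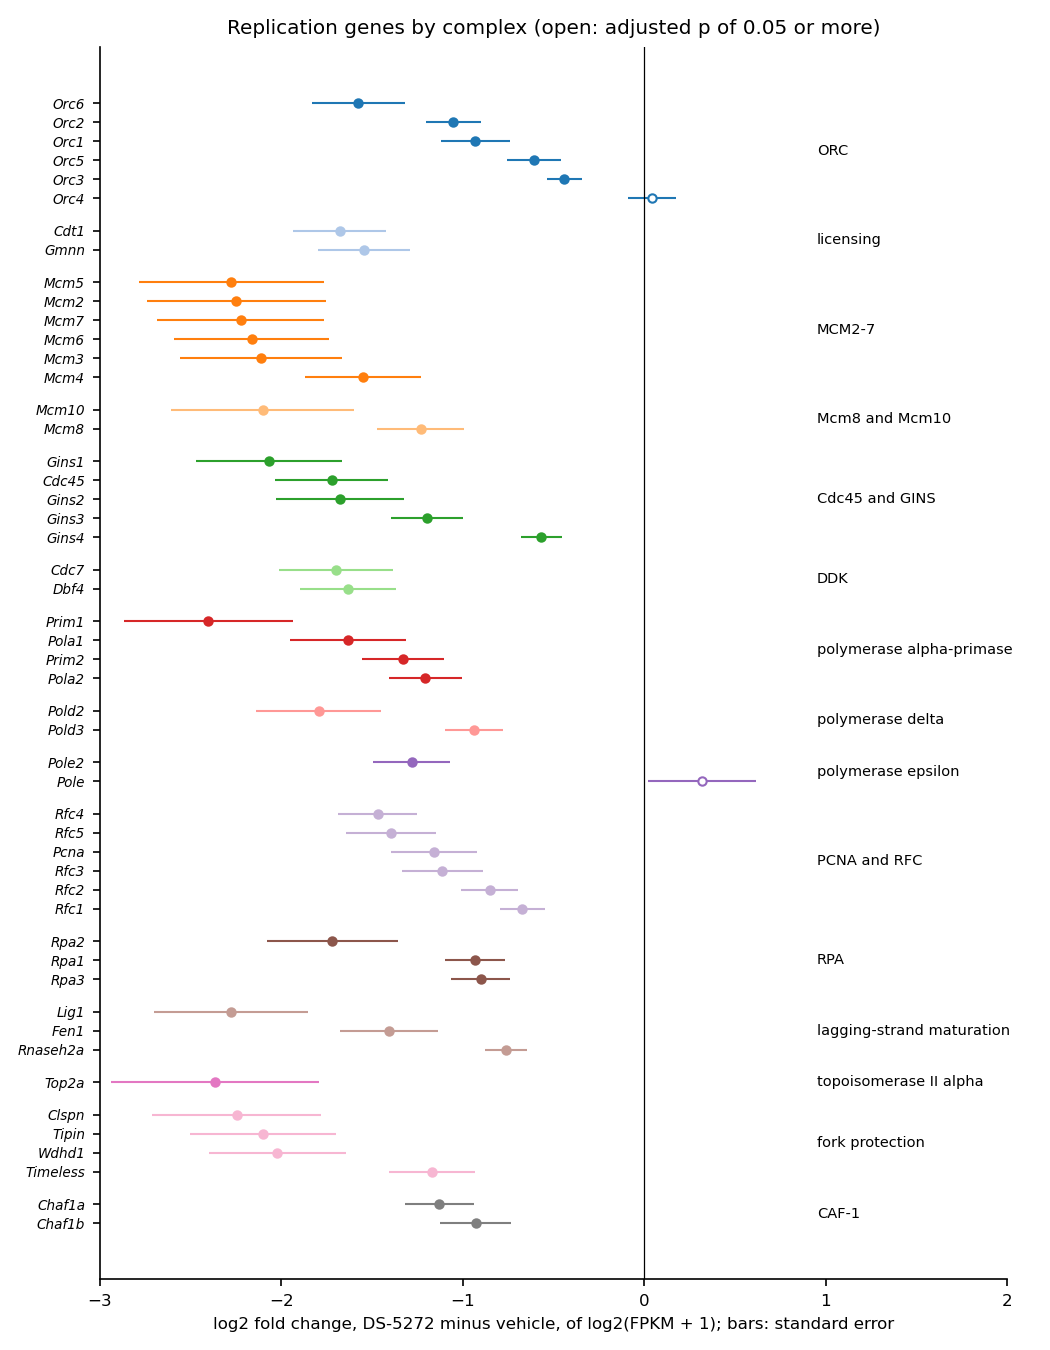
Log2 fold change of each tested replication gene (x axis, DS-5272 minus vehicle on log2(FPKM + 1)), grouped by complex. Bars are standard errors, and open points mark adjusted p of 0.05 or more. Of 50 points, 48 are filled and left of 0, and Orc4 and Pole are the open ones.

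**Figure D2:**
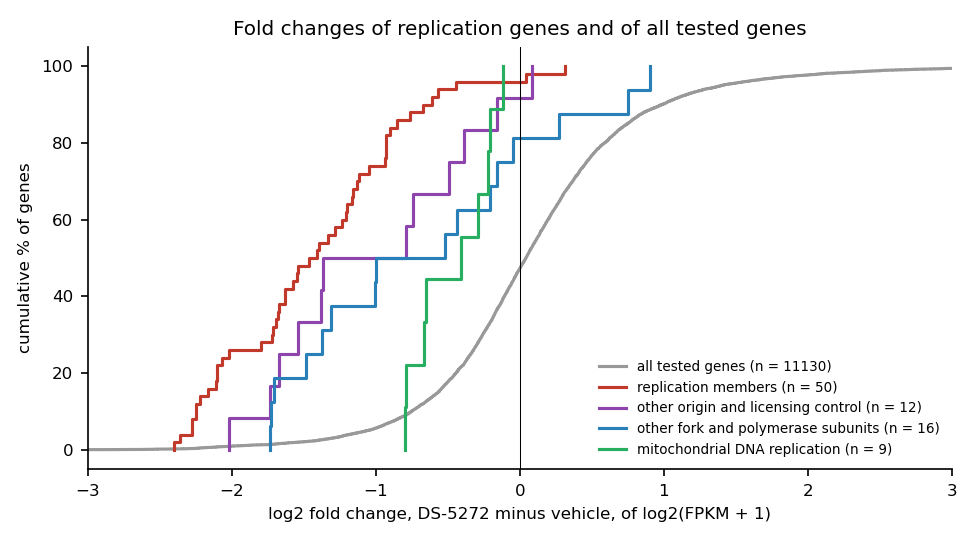
Cumulative share of genes (y axis, %) at or below each log2 fold change (x axis, DS-5272 minus vehicle), for the 50 members, for 3 lists of other replication genes and for all 11130 tested genes. The members' curve reaches its middle at -1.44, that of all tested genes at 0.04.

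The origin recognition complex, the ATPase assembly that marks origins and loads the helicase, had a median log2 fold change of -0.77, with 5 of its 6 genes called lower. Orc6, its smallest subunit, stood at 27, 29.3 and 29.9 FPKM in the vehicle samples and at 8.18, 14.1 and 6.16 FPKM in the DS-5272 samples, each time in the order of replicates 1 to 3. The groups were apart, with a log2 fold change of -1.58 ± 0.26 (SE, n = 3 per group) and an adjusted p of 0.0053 by limma. Orc4 stood at 8.49, 8.83 and 9.59 FPKM with vehicle and at 7.73, 9.78 and 10.5 FPKM with DS-5272. The groups overlapped, and the log2 fold change was 0.04 ± 0.13 (limma adjusted p = 0.806). Orc2 fell by 1.05, Orc1, whose 2 entries were summed, fell by 0.93, Orc5 fell by 0.61 and Orc3 fell by 0.44. The calls of Orc3 and Orc5 rested on the vehicle samples kept. Without vehicle replicate 3 the limma adjusted p was 0.0586 for Orc3 and 0.0543 for Orc5, and without vehicle replicate 2 it was 0.0678 for Orc5. By the GENCODE annotation of GRCm38, exons of Orc4 overlap those of Acvr2a and Mbd5 on the opposite strand, so its FPKM can hold their fragments. Of the 52 members, 21 have an exon overlapping another gene, 17 of them on the opposite strand. Among these 21, 19 were called lower and 2, Orc4 and Pole, were not called. The part of such overlaps in the calls was not tested.

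The licensing factors Cdt1 and Gmnn fell together, although geminin, the product of Gmnn, binds and inhibits Cdt1. Cdt1, which brings the helicase to origins, stood at 48.3, 47.9 and 48.9 FPKM with vehicle and at 12.9, 22.4 and 10.2 FPKM with DS-5272. For Gmnn the values were 54.6, 57.8 and 54.6 FPKM and 18.4, 27.3 and 12.4 FPKM. The groups did not overlap for either gene, and in both the second DS-5272 sample was the highest of its group. Log2 fold changes were -1.68 ± 0.25 for Cdt1 and -1.54 ± 0.25 for Gmnn (SE, n = 3 per group, limma adjusted p = 0.0043 and 0.0052).

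The MCM2-7 helicase unwinds DNA at the fork, and its 6 subunits form a ring in equal numbers. All 6 genes were among the more abundant members with vehicle, and in each the 3 DS-5272 samples lay below the 3 vehicle samples. Mcm5 stood at 114, 105 and 111 FPKM with vehicle and at 24.1, 46.8 and 9.03 FPKM with DS-5272, and Mcm2 at 94.4, 79.0 and 82.5 FPKM against 21.0, 33.4 and 6.88 FPKM. Mcm7 stood at 128, 121 and 128 FPKM against 26.2, 53.8 and 12.3 FPKM, and Mcm6 at 149, 127 and 135 FPKM against 32.9, 54.7 and 14.5 FPKM. DS-5272 replicate 3 was the lowest and replicate 2 the highest of the treated samples in all 6. Mcm3 stood at 128, 107 and 115 FPKM against 30.3, 48.4 and 12 FPKM, and Mcm4 at 75.1, 69.1 and 77.7 FPKM against 27.9, 37.5 and 14.1 FPKM.

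In limma, the log2 fold changes were -2.28 ± 0.51 for Mcm5, -2.25 ± 0.49 for Mcm2, -2.22 ± 0.46 for Mcm7, -2.16 ± 0.43 for Mcm6, -2.11 ± 0.45 for Mcm3 and -1.55 ± 0.32 for Mcm4 (SE, n = 3 per group). Their adjusted p-values lay between 0.0086 for Mcm6 and 0.0126 for Mcm5. The levels of the 6 subunits stayed within a narrow band in each sample. The highest subunit was 1.98, 1.84 and 1.74 times the lowest in vehicle replicates 1 to 3 and 1.57, 1.64 and 2.1 times in DS-5272 replicates 1 to 3. Mcm6 was the highest subunit in all 6 samples, while the lowest was Mcm4 in each vehicle sample and Mcm2 in each DS-5272 sample. Mcm4 kept the largest share of its vehicle mean among the 6 subunits, at 37.8%, 50.6% and 19.0% in DS-5272 replicates 1 to 3. Exons of Mcm7 overlap those of Ap4m1, Cops6, Mir25 and Mir93, so its FPKM can hold their fragments.

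**Figure D3:**
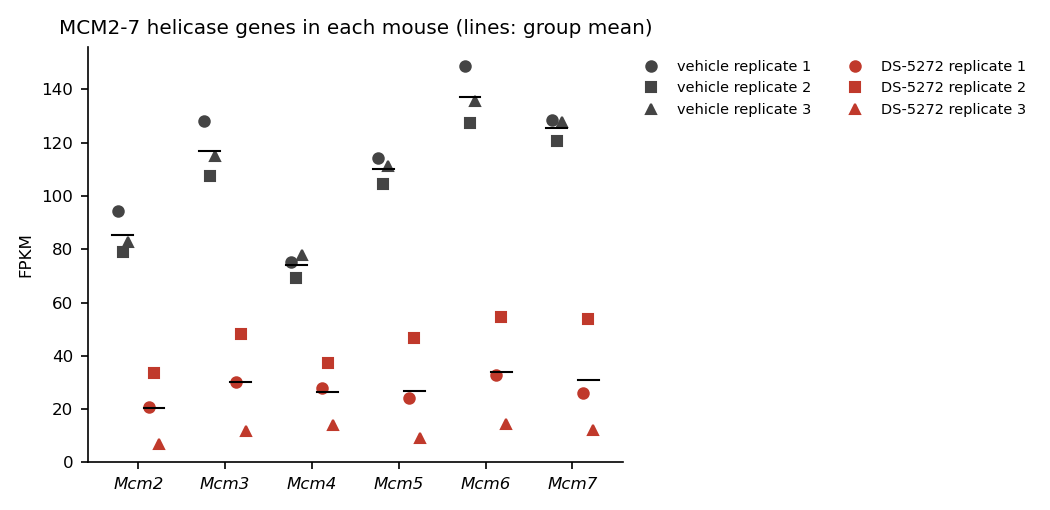
FPKM (y axis) of the 6 MCM2-7 genes in each of the 3 vehicle and 3 DS-5272 samples. Points are samples and lines group means. Every red point lies below every black point of the same gene, and the red triangles (DS-5272 replicate 3) are the lowest, from 6.88 to 14.5 FPKM.

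A pair of further MCM proteins lies outside the hexamer. Mcm10, which is needed to start unwinding, stood at 22.6, 18.1 and 18.8 FPKM with vehicle and at 4.59, 8.58 and 1.10 FPKM with DS-5272. The groups were apart, and Mcm10 fell by 2.1 ± 0.51 on the log2 scale (SE, n = 3 per group, limma adjusted p = 0.0158). Without vehicle replicate 1 its adjusted p was 0.0515. Mcm8, a helicase of homologous recombination repair and the lowest of the members with vehicle, stood at 4.54, 3.59 and 3.58 FPKM against 1.18, 1.78 and 0.479 FPKM. It fell by 1.23 ± 0.24 without overlap (limma adjusted p = 0.0085).

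Genes of the factors that activate the helicase fell as well. Gins1 stood at 23.6, 22.3 and 20.6 FPKM with vehicle and at 4.25, 9.40 and 2.08 FPKM with DS-5272, and Gins4, of the same tetramer, at 30.6, 31.6 and 28.9 FPKM against 19.6, 22.9 and 18.2 FPKM. Neither gene's groups overlapped, but the treated samples kept a mean of 23.7% of the vehicle level for Gins1 and 66.7% for Gins4. The log2 fold changes were -2.07 ± 0.40 and -0.57 ± 0.11 (SE, n = 3 per group, limma adjusted p = 0.0083 and 0.0086). Cdc45, the third component of the active helicase, fell by 1.72, Gins2 fell by 1.67 and Gins3 fell by 1.20. Cdc7, the kinase of DDK, stood at 12.9, 10.7 and 10.9 FPKM against 3.16, 4.80 and 1.34 FPKM, and Dbf4, its regulatory subunit, at 36.9, 35.3 and 36.6 FPKM against 8.13, 17.8 and 9.12 FPKM. Both fell without overlap, by 1.70 ± 0.31 and 1.63 ± 0.26 (limma adjusted p = 0.0072 and 0.0051).

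Among the polymerases, the primase gene Prim1 had the largest fall of all members, at rank 30 of the 11130 tested genes ordered by fall. Prim1, the catalytic primase subunit that makes the RNA primer, stood at 41.8, 41.4 and 39.7 FPKM with vehicle and at 7.29, 14.8 and 2.82 FPKM with DS-5272. Its groups lay far apart, with a log2 fold change of -2.40 ± 0.46 (SE, n = 3 per group, limma adjusted p = 0.0081). Pola2, the accessory subunit of polymerase alpha, stood at 25.7, 20.2 and 23.6 FPKM against 9.61, 12.4 and 6.97 FPKM and fell by 1.21 ± 0.20 (limma adjusted p = 0.0055), the smallest fall of the 4 subunits. Between these, the catalytic polymerase gene Pola1 fell by 1.63 and Prim2, the large primase subunit, fell by 1.33. Pold2 of polymerase delta, the main lagging-strand polymerase, stood at 37.2, 36.3 and 34.5 FPKM against 12.3, 14.4 and 4.90 FPKM, and Pold3 at 41.8, 37.4 and 37.2 FPKM against 18.7, 25 and 16.5 FPKM. Neither overlapped, and they fell by 1.79 ± 0.34 and 0.94 ± 0.16 (limma adjusted p = 0.0078 and 0.0058).

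Of the genes for polymerase epsilon, the leading-strand polymerase, 1 was called lower and the other was not called, and the difference between them was not tested. Pole2, the second subunit, stood at 21.8, 17.6 and 17.4 FPKM with vehicle and at 7.62, 9.45 and 5.05 FPKM with DS-5272, and fell by 1.28 ± 0.21 (SE, n = 3 per group, limma adjusted p = 0.0054). Pole, the catalytic subunit, stood at 20.4, 18.9 and 18.7 FPKM against 16.8, 20.8 and 40.7 FPKM. Its groups overlapped, since DS-5272 replicate 1 was below every vehicle sample and replicates 2 and 3 were above all of them. The log2 fold change was 0.32 ± 0.30 (limma adjusted p = 0.405), and without DS-5272 replicate 3 it was -0.04. The Pole gene lies at chr5:110286306-110337474 on the plus strand of GRCm38, and its exons overlap the antisense gene Gm15792. No source says that strand was used in counting, so fragments of the antisense gene and of Pole cannot be told apart in this table.

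The clamp and its loader had a median log2 fold change of -1.14, against -2.19 for MCM2-7, a difference that was not tested. Pcna, the clamp that tethers polymerases and the most abundant member, fell from a mean of 256 ± 4.39 to 119 ± 44.6 FPKM (SD, n = 3 per group), and fell by 1.16 ± 0.24 on the log2 scale (SE, limma adjusted p = 0.0097). Rfc4, a small subunit of the clamp loader, stood at 14.2, 14.0 and 13.1 FPKM against 3.76, 6.55 and 3.20 FPKM, and Rfc1, its large subunit, at 34.9, 33.3 and 35.4 FPKM against 18.5, 25.1 and 20.9 FPKM. The groups were apart for both, and Rfc4 had the largest and Rfc1 the smallest fall among the clamp and loader genes, by 1.47 ± 0.22 and 0.67 ± 0.13 (limma adjusted p = 0.0041 and 0.0073). Rfc5 fell by 1.40, Rfc3 fell by 1.11 and Rfc2 fell by 0.85.

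The RPA trimer coats single-stranded DNA. Rpa2 stood at 47.7, 39.2 and 42.6 FPKM with vehicle and at 13.7, 20.8 and 6.49 FPKM with DS-5272, and Rpa3 at 27.1, 19.7 and 22.6 FPKM against 11.7, 14.1 and 10.0 FPKM. Both were lower without overlap. Rpa2 fell by 1.72 ± 0.36 and Rpa3 fell by 0.90 ± 0.16 (SE, n = 3 per group, limma adjusted p = 0.0103 and 0.0068). Rpa1, the large subunit that makes the main contact with DNA, fell by 0.93.

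The lagging strand is joined from short pieces by nucleases and a ligase. Lig1, the ligase that seals them, stood at 74.8, 69.3 and 69.7 FPKM with vehicle and at 15.5, 25.9 and 6.48 FPKM with DS-5272. It fell without overlap by 2.28 ± 0.42 (SE, n = 3 per group, limma adjusted p = 0.0072). Rnaseh2a, the catalytic subunit of an RNase that removes RNA from DNA, stood at 14.3, 14.0 and 13.8 FPKM against 7.77, 9.10 and 6.88 FPKM and fell by 0.76 ± 0.12 (limma adjusted p = 0.0045). Fen1, the flap nuclease that trims the ends, fell by 1.41. Top2a, the topoisomerase that untangles the copied strands, stood at 107, 88.2 and 86.5 FPKM against 15.9, 44.8 and 7.0 FPKM. It fell by 2.36 ± 0.57, with the widest error of the members (limma adjusted p = 0.016). Without vehicle replicate 1 the adjusted p of Top2a was 0.0517 and without vehicle replicate 2 it was 0.0506.

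Genes of proteins that hold the fork together and signal when it stalls were all called lower, with a median of -2.06. Clspn, whose product claspin mediates checkpoint kinase activation at stalled forks, stood at 24.1, 19.5 and 18.8 FPKM with vehicle and at 4.56, 7.14 and 1.11 FPKM with DS-5272. Timeless, of the fork protection complex, stood at 19.2, 15.7 and 16.6 FPKM against 9.66, 7.80 and 4.60 FPKM. The groups did not overlap, and for Timeless the highest treated sample was replicate 1. Clspn fell by 2.25 ± 0.46 and Timeless by 1.17 ± 0.24 (SE, n = 3 per group, limma adjusted p = 0.0098 and 0.0093). Tipin, the partner of Timeless, fell by 2.1 and Wdhd1, which couples the helicase to polymerase alpha, fell by 2.02. The loss of Tipin relative to Timeless was not tested.

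CAF-1 deposits histones on newly copied DNA. Chaf1a, its large subunit, stood at 43.2, 36.8 and 39.7 FPKM with vehicle and at 18.3, 22.8 and 13.2 FPKM with DS-5272, and Chaf1b at 35.8, 31.0 and 29.1 FPKM against 16.8, 21.0 and 12.1 FPKM. Both were lower in every treated sample. Chaf1a fell by 1.13 ± 0.19 and Chaf1b fell by 0.93 ± 0.20 (SE, n = 3 per group, limma adjusted p = 0.0057 and 0.0104).

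The 3 treated samples differed from each other in a shared order. DS-5272 replicate 2 was the highest treated sample in 46 of 50 members (92%), against 23.7% of all tested genes and 66.3% of all genes called lower. DS-5272 replicate 3 was the lowest in 42 members (84%), against 26.5% and 69.3%. The order of replicate 2 over 1 over 3 was found in 41 members (82%), against 13.6% of all tested genes and 49% of all genes called lower. The members' median level was 33.6% of the vehicle mean in DS-5272 replicate 1, 49.5% in replicate 2 and 22.8% in replicate 3. For MCM2-7 it was 24.3%, 42.0% and 10.0%, and for ORC 48.6%, 64.2% and 53.8%, so replicate 3 was not the lowest for ORC by this median. It was still the lowest treated sample in Orc1, Orc2 and Orc6, at 28.9%, 36.7% and 21.45%. For the polymerase epsilon pair the medians were 63.6%, 78.8% and 118.5%, with replicate 3 the highest. The genes share their libraries, so these counts are not independent. The p53 target Cdkn1a, which encodes p21 and was added after its values were seen, stood at 14.8, 28.1 and 25.5 FPKM with vehicle and at 32.3, 117 and 485 FPKM with DS-5272, and was not called (log2 fold change 2.43, limma adjusted p = 0.0611). Its highest level was in the sample with the lowest replication levels, but its lowest treated level was not in the sample with the highest. DS-5272 replicate 3 was also the sample of lowest relative depth, at 0.539, and the part of depth was not tested.

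**Figure D4:**
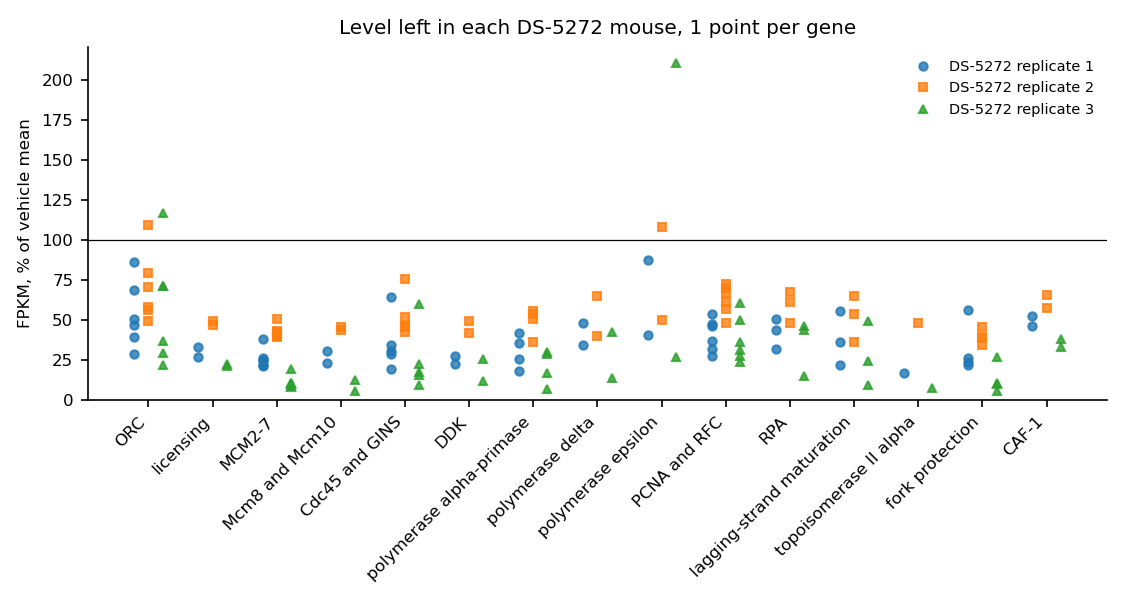
FPKM left in each DS-5272 sample as % of the vehicle mean (y axis), by complex (x axis), with 1 point per gene and 1 colour and shape per sample. Orange squares (replicate 2) lie highest and green triangles (replicate 3) lowest in most complexes, and the point at 210% is Pole in replicate 3.

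Matches to promoter words were counted in RefSeq windows from 250 bases before to 50 bases after the start. The E2F-type words were TTTCCCGC, TTTGGCGC, TTTGCCGC and TTTCGCGC, read on both strands, and some can overlap, as in Mcm5. A window was given for 43 of the 52 members. An E2F-type word was found in 17 of these (39.5%), against 4.98% of the 7456 tested genes with a window and 2.60% of all 27025 genes with one. Within MCM2-7, 4 of the 5 genes with a window held one, namely Mcm3, Mcm5, Mcm6 and Mcm7. None was found in the windows of the 3 RPA genes, the pair of DDK genes or the pair of CAF-1 genes, which says only that these letters are not there. Members with a word had a median log2 fold change of -1.63 (n = 15, from -2.28 to -0.44) and those without one of -1.40 (n = 26, from -2.40 to 0.04). Prim1 and Top2a, with the largest falls, were among those without. Of all 371 tested genes with an E2F-type word, 41.5% were called lower, and their median log2 fold change was -0.23. Over all 11130 tested genes, with or without a window, these values were 22% and 0.04. The 371 include the 15 tested members with a word.

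Other promoter words gave shares nearer to the background. The words TTTGAA and TTCGAA, letters of the CHR element of cell cycle genes, were found in 10 of 43 members (23.3%), against 16.4% of tested genes and 21.7% of all genes with a window. Members with a CHR-type word, Top2a among them, had a median log2 fold change of -1.71 (n = 10, from -2.36 to -1.11). Those without one had -1.23 (n = 31, from -2.40 to 0.04). CCAAT, the letters bound by NF-Y, was found in 26 of 43 (60.5%), against 43.8% and 41.1%. The medians with and without CCAAT were -1.60 (n = 26) and -1.40 (n = 15). Of all tested genes with a CHR-type word 29.2% were called lower, and of those with CCAAT 24.2%. None of these differences was tested. All words were searched on both strands, and a match is a description of the letters, not of binding.

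**Figure D5:**
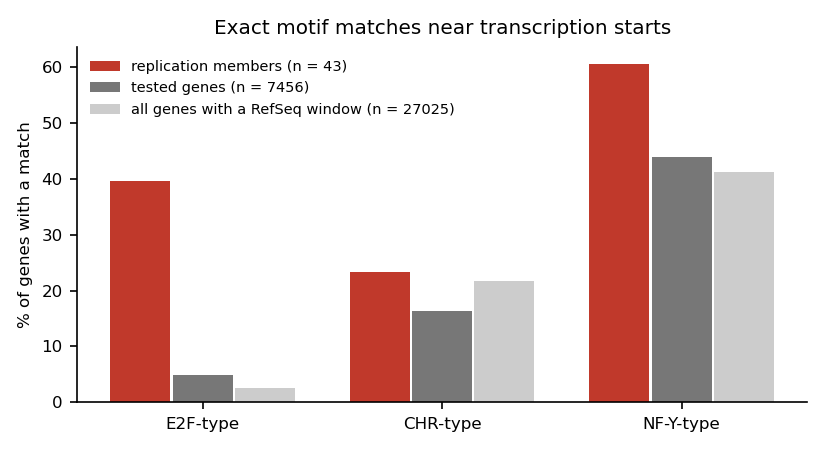
Share of genes (y axis, %) with an exact match in the RefSeq window, for 43 members, 7456 tested genes and all 27025 genes with a window. NF-Y-type stands for CCAAT. The E2F-type share is 39.5% in the members and 4.98% in the tested genes.

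Replication genes outside the 52 were described by 6 further lists. The counts of each list stand beside 22% of all tested genes called lower and 24.2% called higher. Blocked by replicate number, these shares were 24.9% and 30.3%. Of 12 tested genes of origin firing and licensing control, 10 were called lower and none higher, with a median log2 fold change of -1.08. Fbxo5, which encodes the inhibitor of the ubiquitin ligase that destroys geminin, fell by 2.02 ± 0.38 and Dtl, part of the ligase that destroys Cdt1, fell by 1.74 ± 0.40 (SE, n = 3 per group, limma adjusted p = 0.0075 and 0.0143). Of 16 other fork and polymerase subunits, 10 were called lower and 2 higher, with a median of -0.76. Blocked by replicate number, 9 were lower, since Pole4, a small subunit of polymerase epsilon, had an adjusted p of 0.0469 without it and 0.053 with it in limma. Chtf18 and Dscc1, subunits of an alternative clamp loader, fell by 1.74 ± 0.33 and 1.73 ± 0.35 (limma adjusted p = 0.0079 and 0.0093). The exceptions were Obfc1, a subunit of the CST telomere replication complex, and Pold4, the smallest subunit of polymerase delta. Obfc1 stood at 5.19, 3.62 and 4.65 FPKM with vehicle and at 7.84, 8.88 and 11.2 FPKM with DS-5272, and rose by 0.91 ± 0.17 (limma adjusted p = 0.0072). Pold4 stood at 29.4, 34.5 and 33.4 FPKM against 46.0, 52.2 and 69.6 FPKM, and rose by 0.75 ± 0.16 (limma adjusted p = 0.0118). Neither gene's groups overlapped, so Pold4 moved opposite to Pold2 and Pold3 of the same enzyme.

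All 8 tested genes of replication-coupled chromatin were called lower, with a median of -1.40. Uhrf1, which brings the maintenance DNA methyltransferase to copied DNA, fell by 2.2 ± 0.55, and Asf1b, a histone chaperone that hands histones to CAF-1, fell by 2.11 ± 0.48 (SE, n = 3 per group, limma adjusted p = 0.0181 and 0.0132). All 7 S phase cyclins and kinases were called lower too, with a median of -1.59, led by the cyclin gene Ccna2, which fell by 2.76 ± 0.66, and the kinase gene Cdk1, which fell by 2.25 ± 0.55 (limma adjusted p = 0.0152 and 0.0164). Some of these calls rested on the vehicle samples kept. The limma adjusted p without vehicle replicate 1 and without vehicle replicate 2 was 0.0551 and 0.055 for Uhrf1 and 0.0502 and 0.0545 for Cdk1, and for Ccna2 it was 0.051 without vehicle replicate 2.

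The last lists cover DNA synthesis by translesion polymerases and in mitochondria. Of 7 translesion polymerase genes, 4 were called lower and none higher, with a median of -0.42, among them Polq, of an end-joining polymerase, which fell by 1.22 ± 0.27, and Polh, which copies past UV damage and fell by 0.79 ± 0.14 (SE, n = 3 per group, limma adjusted p = 0.0117 and 0.0065). Of 9 genes for mitochondrial DNA replication, 6 were called lower and none higher, with a median of -0.41 and a range from -0.80 to -0.12. Blocked by replicate number, 5 were lower, since Ssbp1, the mitochondrial single-strand binding protein, had an adjusted p of 0.0455 without it and 0.0527 with it in limma. Peo1, the mitochondrial helicase, fell by 0.79 ± 0.12 and Top1mt, the mitochondrial topoisomerase, fell by 0.80 ± 0.25 (limma adjusted p = 0.0047 and 0.0368). The call of Top1mt was lost without any 1 of the 3 vehicle samples (adjusted p = 0.0994, 0.0814 and 0.0952) without DS-5272 replicate 2 (0.0701) and with no filter on low genes (0.0733). The nuclear members were not tested against these lists.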

How the data were processed

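RNA-Seq was done on 6 samples, 3 per treatment, grouped by the treatment label. Per the study's methods and the submitters' processing notes, strand-specific paired-end libraries were trimmed (cutadapt 1.8.1, fastx-toolkit), checked with FastQC and aligned to GRCm38 reference transcripts (TopHat2 2.1.1, Cufflinks 2.2.1). The deposited FPKM values, made by the authors, are scaled by transcript length and mapped fragments, so counts and counting error are unknown. Relative depth was derived from the steps between the lowest values, in genes below 0.15 FPKM. Of 26632 rows, 433 join several genes and were left apart, and rows sharing a symbol were summed.

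The 11130 genes averaging 1 FPKM or more were compared on log2(FPKM + 1) with limma 3.58.1 (lmFit, eBayes with trend, two-sided, R 4.3.3), Benjamini-Hochberg adjusted over all of them, threshold 0.05. The fit was checked on simulated data. With 3 against 3 samples, an exact permutation test of 1 gene cannot go below p = 0.1. Motifs and figures used Python 3.11.15, numpy 2.4.6, pandas 2.3.3 and matplotlib 3.10.9, and exon overlaps came from the GENCODE annotation of GRCm38.

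The members and lists were chosen with earlier results of these data known. Values in every sample are given for MCM2-7, for the members with the largest and smallest change in size of every other complex, for single-member groups and for members not called. From each further list, the 2 largest changes past the threshold and up to 2 called against the list's median are named. Pcna, Cdkn1a, Msh3, Mycn, Pole3, Pole4 and Ssbp1 were added after values or sequences were seen, as were sample values of Obfc1 and Pold4. Some listed markers are not reported here by name.

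Same-numbered vehicle and DS-5272 samples deviated together from their group means (correlations across genes of 0.66, 0.21 and 0.43, against -0.58 to 0.34 for other pairs). Each exceeded 0.1, which was taken as pairing by number. Vehicle replicate 2 with DS-5272 replicate 3 (0.34) and vehicle replicate 3 with DS-5272 replicate 2 (0.18) exceeded that limit too. The limit alone therefore does not single out same-numbered pairs. The pairing comes from the data, since the labels name no shared batch. The 17 alternatives changed the pseudocount, filter, scaling, block, trend, fold threshold, handling of repeated symbols and the samples kept.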

Additional observations from a re-analysis of the deposited data

How the results depend on the processing

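Under the 17 alternatives the members called lower numbered 37 (when a change of 1 or more on the log2 scale was also required) to 48, with none higher, and 45 of the 47 with a mean of at least 5 FPKM. The share of all fitted genes called lower ran from 5.58% at that fold threshold to 31.9% at a common total. Leaving out each sample in turn gave 46 to 48 members lower, against 12.5% to 21.9% of all tested genes. The members' median log2 fold change then ranged from -1.71 (without DS-5272 replicate 2) to -1.18 (without DS-5272 replicate 3). With the replicate block 48 were lower, and no member's call changed, while Pole4 and Ssbp1 of the further lists lost theirs. The median of ORC was -0.61 with a mean of at least 5 FPKM, which drops Orc1, and -0.99 at a common total, where that of polymerase epsilon was -0.73. Orc4 turned to -0.085 at a common upper quartile, -0.20 at a common total and -0.038 without DS-5272 replicate 3 (at most 0.16, without DS-5272 replicate 1), and Pole to -0.043 without DS-5272 replicate 3 (at most 0.57, without DS-5272 replicate 1), and neither was called anywhere (adjusted p = 0.162 to 0.993 and 0.127 to 0.847). A common upper quartile moved the all-gene median by -0.12. The 11 calls lost at the fold threshold follow from their size under 1. FPKM without counts limits what can be said of low members such as Mcm8.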

Other observations

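The joined entries that hold the members without a value of their own did not fall as the tested members did. Cdc6/Rara stood at 35.9, 33.0 and 35.4 FPKM with vehicle and at 29.0, 46.2 and 42.3 FPKM with DS-5272, and Nr1h2/Pold1 at 72.2, 78.5 and 81.0 FPKM against 62.6, 81.5 and 82.2 FPKM. The groups overlapped in both, and the share of Cdc6 or Pold1 in these values was not tested. RefSeq windows of Cdc6 and Pold1 each held an E2F-type word.

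Orc1 had 2 entries that moved differently. The higher one stood at 4.17, 3.06 and 3.72 FPKM with vehicle and at 0.949, 1.96 and 0.204 FPKM with DS-5272, without overlap, and the lower one at 0.625, 0.642 and 0.515 FPKM against 0.716, 0.507 and 1.02 FPKM, with overlap. Taken alone, the higher entry gave a log2 fold change of -1.28, against -0.93 for the sum. Lig1 also had 2 entries, of which the second had means of 0.527 and 0.232 FPKM. These entries were picked out after their values were seen.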
